A study of Mus musculus with 12 samples.

Results

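The genes described here encode the proteasome, its activators and its assembly chaperones, measured in total and polysome-bound mRNA of mouse neural progenitor cells with and without Torin1. They are the genes named Psm followed by a letter from a to g and a number. The pattern matched 48 names, of which 46 reached a value of 1 in no fewer than 3 libraries, among 20240 genes that met the same threshold and 53351 in the table. Psma8, the testis form of an alpha subunit, and Psmb11, the thymus form of a beta subunit, fell outside it. Psmb11 was listed at 0 in every library, and Psma8 had deposited values of 0.96 in polysome DMSO replicate 2, 1.68 in polysome DMSO replicate 3 and 1.94 in polysome Torin1 replicate 1, and 0 elsewhere. The members with the lowest values were Psmb9, with deposited values of 2.73 to 14.58, and Psmb8, with 2.69 to 28.62, both above 1 in all 12 libraries.

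The proteasome degrades proteins tagged with ubiquitin. Its core particle is a barrel of alpha rings, which gate the entrance, around beta rings, of which Psmb5, Psmb6 and Psmb7 carry the active sites. The regulatory particle caps the barrel. Its Psmc ATPases unfold the substrate and its Psmd non-ATPase subunits bind and remove ubiquitin. Dedicated chaperones build each particle, Psme proteins are alternative caps, and the mTOR kinase has been linked to proteasome levels through the transcription factor NRF1 (Nfe2l1). The 46 genes were grouped as 14 core particle subunits (7 alpha, 7 beta), 17 regulatory particle subunits (6 ATPases, 11 non-ATPases), 3 tissue-restricted core subunits, 4 core chaperones, 3 regulatory particle chaperones, 4 alternative activators and Psmf1, a regulator first described as an inhibitor.

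Cells were dissociated from wild-type mouse cortex at E13.5, cultured overnight with bFGF and EGF, and given DMSO or 250 nM Torin1, an inhibitor of the mTOR kinase, for 2 h. All cultures then received cycloheximide, which stalls ribosomes on mRNA, at 100 µg/ml for 5 min. For each culture 10% of the lysate was kept as total mRNA, and the polysome sample pooled the gradient fractions with more than 3 ribosomes per mRNA. There were 4 groups of 3 biological replicates: total DMSO, total Torin1, polysome DMSO and polysome Torin1. All groups were wild type and had cycloheximide, and Torin1 was used at 1 dose and 1 time. In bulk samples fewer cells of a type and less RNA per cell cannot be told apart.

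Levels are given in ppm, which here is the share of the mean column total after rescaling, times 1000000. The lowest values of pseudogenes fell with gene span, so the signal looked roughly scaled to length. This was not checked for proteasome transcripts, so comparisons of levels between genes are approximate. The depth in reads is unknown. The deposited column totals ran from 14341674 to 19201406. The factors that removed composition differences were 1.05 to 1.12 in total mRNA, 0.801 to 0.901 in polysome DMSO and 0.911 to 1.08 in polysome Torin1, so the fractions and, within polysomes, the treatments were brought to a common scale by unequal amounts. The 10 progenitor markers summed to 3455 to 7078 ppm and 6 neuron markers to 2546 to 2805 ppm, and all 16 were above 1 ppm on average in each group. The cultures thus held neuronal RNA as well as the labelled progenitors. In total mRNA the progenitor markers summed to 3455 to 3539 ppm in DMSO and 3953 to 4053 ppm in Torin1. The neuron markers summed to 2546 to 2586 ppm in total DMSO and 2688 to 2771 ppm in total Torin1. Of other cell types, 6 erythroid markers summed to 1204 to 2415 ppm, 10 macrophage and microglia markers to 16.4 to 46.1 ppm and 6 endothelial markers to 11.8 to 25.7 ppm. Among erythroid markers the globin genes led.

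Polysome Torin1 replicate 3 stood apart from the other libraries of its group for many of these genes. Among the 46 genes it was the highest of the 3 polysome Torin1 libraries for 30, and it lay above the range of polysome DMSO for 18, while replicates 1 and 2 lay below that range for 31 and 39. It was the highest of the 3 for 40.4% and the lowest for 35.4% of the 8687 genes that averaged at least 10 ppm. The counts above or below the range of polysome DMSO were not taken over all genes, so they cannot be called particular to the proteasome genes. Outside the proteasome genes, Fabp7, a progenitor lipid carrier, was at 2807, 3016 and 5574 ppm in polysome Torin1 replicates 1 to 3, and the globin gene Hbb-bs at 915, 815 and 1347 ppm. These genes are examples and do not stand for their marker lists. The 10 progenitor markers summed to 4535 to 7078 ppm in polysome Torin1, and Fabp7 made up most of that sum. Results that rest on this library are given with and without it.

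RefSeq promoter entries were matched for 39 of the 46 genes (42 promoters, build GRCm38.p6). The first bases of the transcripts are shown because mRNAs known for losing ribosomes under mTOR inhibition start with a C followed by a run of pyrimidines, as in the ribosomal protein genes Rps27 and Rps6, given for contrast. Capitals mark the 5 bases examined, read 5′ to 3′ on the coding strand. Psma7 lies at chr2:180042445-180042464 (minus strand), Psmb5 at chr14:54617976-54617995 (minus), Psmb6 at chr11:70525357-70525376 (plus), Psmd12 at chr11:107479528-107479547 (plus), Psme4 at chr11:30771775-30771794 (plus), Psmg4 at chr13:34162964-34162983 (plus), Rps27 at chr3:90213629-90213648 (minus) and Rps6 at chr4:86857348-86857367 (minus).
Psma7: AGACGccagcagcgtggccc
Psmb5: AAACAtggcgctggctagcg
Psmb6: GCTTTacgacggttgctttg
Psmd12: GAGTGgtggccgaacctggg
Psme4: CACCAgaagagccggagggg
Psmg4: TCGGCgcgcgcatctgaaag
Rps27: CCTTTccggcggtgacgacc
Rps6: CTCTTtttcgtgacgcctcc
None of the 42 starts (0.0%) was C followed by 4 pyrimidines, against 2.44% of 16613 promoters of the genes tested and 2.51% of all 32851. A RefSeq start can differ from the start used in these cells, so this says only which letters stand at the annotated position.

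In the 250 bases before the start, a pair of motifs was searched on both strands. The first was TGACNNNGC, the core of the antioxidant response element, which NRF1 is known to bind in proteasome promoters. It stood in 5 of the 42 promoters (11.9%), those of Psmb5, Psmb6, Psmc6, Psmd12 and Psmd9, against 11.5% for the genes tested. The second was CCGGAAG, the motif of ETS-family factors, in 13 of the 42 (31.0%), in 12 genes, against 11.2% for the genes tested and 6.91% of all promoters. The copies in the genes of a pair of active-site subunits, in Psmd12 and in Psme4 are shown with up to 30 bases on each side, with the motif in capitals, reading CTTCCGG where it lies on the other strand. The window of Psmb5 is chr14:54618004-54618072 (minus strand), of Psmb6 chr11:70525318-70525356 (plus), of Psmd12 chr11:107479481-107479527 (plus) and of Psme4 chr11:30771692-30771758 (plus).
Psmb5: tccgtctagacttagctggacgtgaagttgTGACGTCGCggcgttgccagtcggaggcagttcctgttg
Psmb6: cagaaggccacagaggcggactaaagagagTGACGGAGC
Psmd12: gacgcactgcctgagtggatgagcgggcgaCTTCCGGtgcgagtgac
Psme4: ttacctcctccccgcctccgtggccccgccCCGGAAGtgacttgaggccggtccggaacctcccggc
These matches describe letters and do not show binding.

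In total DMSO the core particle genes were the most abundant class. Their median level was 251, 264 and 264 ppm in the 3 libraries, against 175, 177 and 176 ppm for the regulatory particle, a ratio of 1.44 to 1.49. Together the 46 genes held 0.798% to 0.802% of the column total before rescaling, the core particle 0.411% to 0.414% and the regulatory particle 0.307% to 0.310%. Within the core, Psmb6 was the highest at 455, 469 and 454 ppm and Psma2 the lowest at 70.4, 69.6 and 67.8 ppm. Subunits that sit once per ring in the assembled barrel thus differed in level on this approximate scale far beyond the spread between libraries.

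The active-site subunits of the standard proteasome were present at high levels and their immune counterparts were low. Psmb5, the chymotrypsin-like subunit, was at 279, 271 and 266 ppm in total DMSO, whereas Psmb8, which replaces it in the immunoproteasome of interferon-exposed cells, was at 0.416, 0.764 and 0.733 ppm. Psmb6, the caspase-like subunit, was at 454 to 469 ppm, and its counterpart Psmb9 at 0.443, 0.309 and 0.277 ppm. Psmb7, the trypsin-like subunit, was at 284, 289 and 296 ppm, and its counterpart Psmb10 at 15.9, 20.9 and 16.5 ppm. Psmb8 and Psmb9 stayed at or below 1.77 ppm in all 12 libraries, and Psmb10 ranged from 14.2 to 41.0 ppm.

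Assembly factors were expressed below the subunits they help to place, with the exceptions of Psmg4 and Pomp. The core chaperones Psmg1, Psmg2 and Psmg3 ran from 34.1 to 45.8 ppm in total DMSO, and the regulatory particle chaperones Psmd5, Psmd9 and Psmd10 from 21.1 to 29.0 ppm. Psmg4, the partner of Psmg3, was at 171, 182 and 162 ppm, above every library of Psmg3 (35.0, 34.1 and 36.1 ppm). Pomp, the maturation factor of the core, was at 414, 465 and 426 ppm, in the range of the core subunits. Of the caps, Psme3, the nuclear activator, was at 105, 110 and 107 ppm, Psme1 and Psme2 at 69.6 to 88.8 ppm, and Psme4, the large single-chain activator, at 36.0, 34.7 and 33.7 ppm. Psmf1 was at 28.6, 27.3 and 30.7 ppm.

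**Figure D1:**
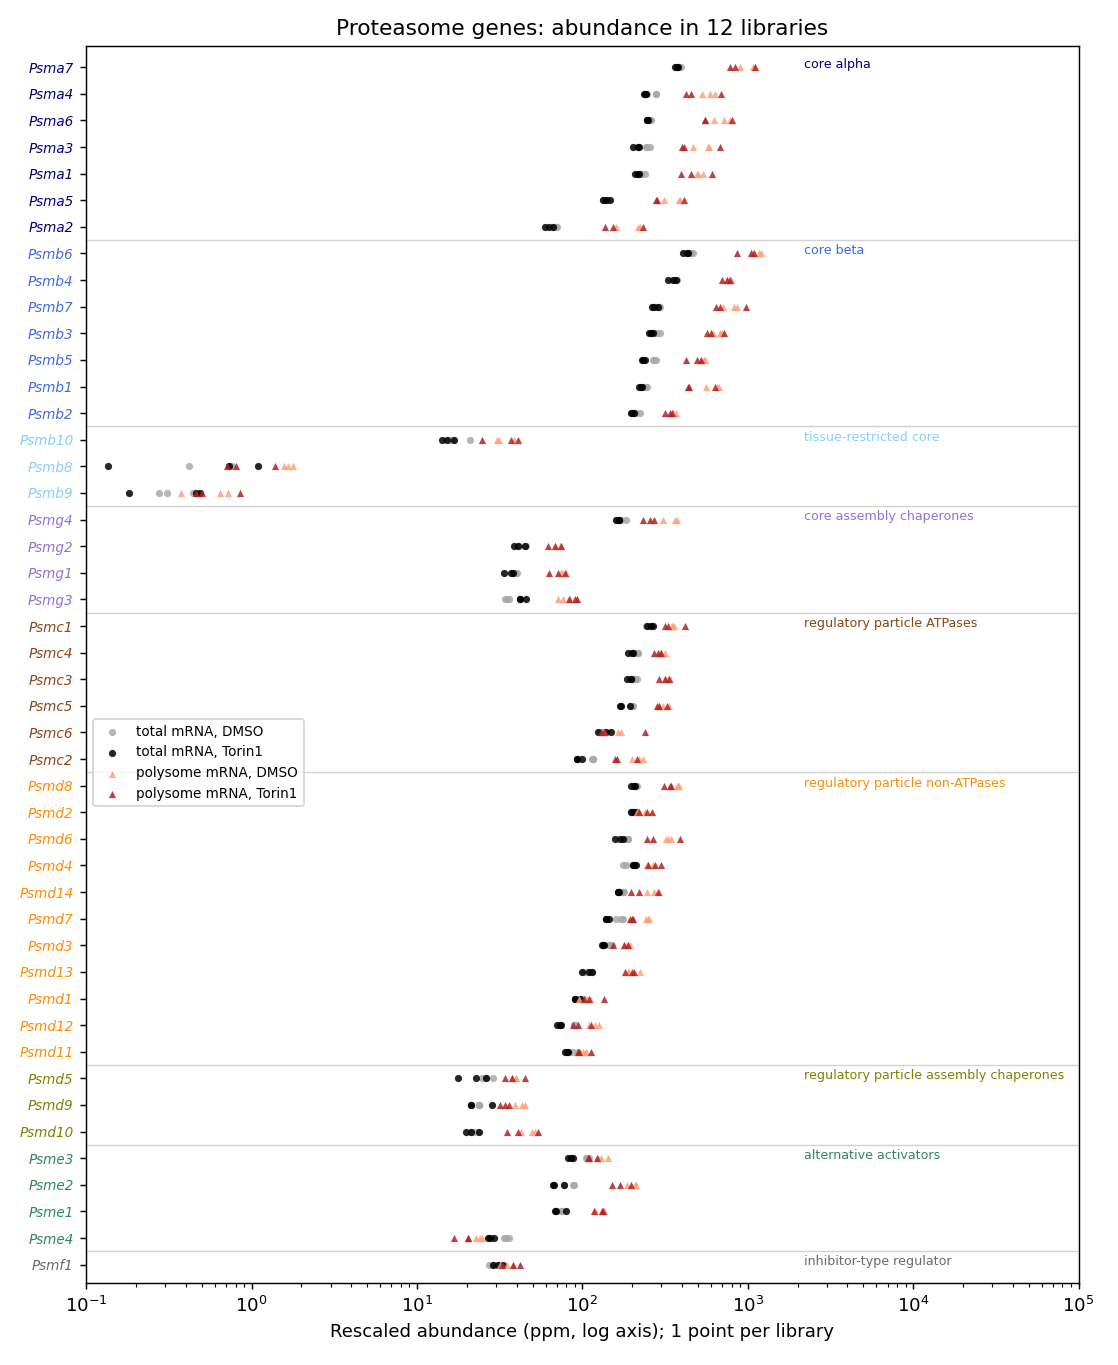
Rescaled abundance (ppm, log axis) of the 46 proteasome genes, 1 point per library, grouped by role and ordered by level in total DMSO. Circles are total mRNA and triangles polysome mRNA; core particle genes lie far to the right of their circles in polysome mRNA, Psme4 lies to the left, and Psmb8 and Psmb9 stay at or below 1.77 ppm.

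In DMSO, most proteasome mRNAs were more abundant in polysomes than in total mRNA, and the core particle more so than the regulatory particle. All 14 core genes were higher in polysomes, with a median log2 difference of 1.27 (2.40-fold), and 14 of 17 regulatory particle genes were, with a median of 0.51 (1.42-fold). Over all 46 genes 39 were higher and 1 was lower, where 21.8% of the 20240 genes tested were higher and 19.3% lower (limma, adjusted p under 0.05), or 42.6% and 24.8% of the 8687 genes that averaged at least 10 ppm. The median over all genes tested was 0.00, and over those at 10 ppm or more 0.16. These are differences relative to the other mRNAs of each fraction, not ribosome numbers per mRNA, and transcript length was not analysed here.

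Alpha subunits had a median difference of 1.39 and beta subunits of 1.21. The 3 largest differences were those of Psma2, Psma6 and Psmb7. Psma2, an alpha-ring subunit, was at 70.4, 69.6 and 67.8 ppm in total DMSO and 216, 161 and 222 ppm in polysome DMSO, a log2 difference of 1.51 ± 0.17 (SE, n = 3 per group; limma adjusted p = 2.26e-05). Psma6, also of the alpha ring, was at 255, 257 and 261 ppm in total and 778, 624 and 721 ppm in polysomes, a difference of 1.45 ± 0.13 (limma adjusted p = 4.37e-06). Neither gene had overlapping groups, and replicate 2 was the lowest of the 3 polysome DMSO libraries for both. It was so for 24 of the 46 genes, a count not taken over all genes. Psmb7 went from 284 to 296 ppm in total to 855, 704 and 824 ppm in polysomes, a difference of 1.45 ± 0.13 (limma adjusted p = 4.89e-06). The smallest core difference was that of Psmb2, a non-catalytic beta subunit, at 222, 203 and 211 ppm in total and 351, 352 and 367 ppm in polysomes (0.75 ± 0.06, limma adjusted p = 2.53e-06).

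The active-site subunits did not stand together. Psmb7 was near the top of the core (1.45), Psmb6 followed at 1.32 ± 0.09, and Psmb5, at 520, 547 and 550 ppm in polysomes, was at 0.99 ± 0.07, next to last among the 14. Of their immune counterparts Psmb10 was called, at 31.5, 30.5 and 38.3 ppm in polysomes (0.91 ± 0.17, limma adjusted p = 0.00108). Psmb8 was at 1.77, 1.65 and 1.57 ppm and Psmb9 at 0.375, 0.644 and 0.722 ppm in polysomes, and neither passed the test (limma adjusted p = 0.0729 and 0.255). Psmb8 did pass without total Torin1 replicate 2 or 3 (limma adjusted p = 0.0457 and 0.00772). Those libraries enter only the shared estimate of spread.

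The regulatory particle spanned a wider range, from 0.06 to 0.91. Psmc2, an ATPase of the ring, had the largest difference, at 116, 116 and 115 ppm in total and 234, 200 and 219 ppm in polysomes (0.91 ± 0.10, limma adjusted p = 2.40e-05). Psmd13, a lid subunit, was at 0.89 ± 0.08, Psmd8 at 0.85 ± 0.06 and Psmd6 at 0.83 ± 0.13, all above the smallest core value. At the other end, the large scaffold subunits Psmd1 and Psmd2 and the ATPase Psmc6 did not pass the test. Psmd1 was at 101, 102 and 98.5 ppm in total and 112, 107 and 96.0 ppm in polysomes (0.06 ± 0.09, limma adjusted p = 0.647), and the groups overlapped. Psmd2 was at 198, 198 and 202 ppm against 221, 239 and 215 ppm (0.17 ± 0.07, limma adjusted p = 0.0749), and Psmc6 at 134, 130 and 129 ppm against 172, 134 and 165 ppm (0.25 ± 0.19, limma adjusted p = 0.331). Without polysome Torin1 replicate 3, which enters the shared estimate of spread, Psmd2 and Psmc6 passed (limma adjusted p = 0.0214 and 0.0428), as Psmd2 did without polysome Torin1 replicate 1 (0.0415). The call of Psmd11, a lid subunit (0.23 ± 0.08, limma adjusted p = 0.0250), was lost without total DMSO replicate 1 or 2 or polysome DMSO replicate 1 or 2 (limma adjusted p = 0.0660 to 0.101).

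Assembly factors followed neither particle strictly. The core chaperones were all 4 higher in polysomes (median 0.98, from 0.70 for Psmg2 to 1.14 for Psmg3), as were the 3 regulatory particle chaperones (median 0.84, Psmd10 highest at 1.12). The small proteins Pomp and Sem1 matched the core, at 1.39 ± 0.13 and 1.36 ± 0.14 (limma adjusted p = 5.50e-06 and 1.13e-05), although Sem1 is a lid subunit. Adrm1, a ubiquitin receptor of the regulatory particle, was at 0.55 ± 0.07 (limma adjusted p = 5.90e-05). Of the 19 measured partners fixed as a list, 5 were higher and 5 lower in polysomes, with a median of 0.12. Of all genes tested 21.8% were higher and 19.3% lower, or 42.6% and 24.8% of those at 10 ppm or more, whose median was 0.16.

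The alternative activators split. Psme2, which forms a cap with Psme1 and is known as interferon-inducible, was at 88.8, 87.1 and 77.1 ppm in total and 211, 185 and 208 ppm in polysomes (1.25 ± 0.10, limma adjusted p = 3.08e-06), and Psme1 had a difference of 0.81 ± 0.08. Psme3 was at 125, 142 and 130 ppm in polysomes (0.30 ± 0.07, limma adjusted p = 0.00337). Psme4 alone among the 46 was lower in polysomes, at 24.7, 24.2 and 22.8 ppm against 36.0, 34.7 and 33.7 ppm in total, a log2 difference of -0.54 ± 0.08 (limma adjusted p = 0.000216), with no overlap. Psmf1 was at 35.0, 38.1 and 31.7 ppm in polysomes and did not pass (0.27 ± 0.10, limma adjusted p = 0.0517), except without polysome DMSO replicate 3 or polysome Torin1 replicate 1 or 3 (limma adjusted p = 0.0212 to 0.0337). A neighbouring protein-coding gene overlaps Psme4 (Erlec1), Psme1 (Emc9), Psmd1 (Htr2b), Psmd10 (Atg4a), Psma4 (AY074887) and Psmf1 (Tmem74b), and the labels do not say whether strand was used in counting.

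**Figure D2:**
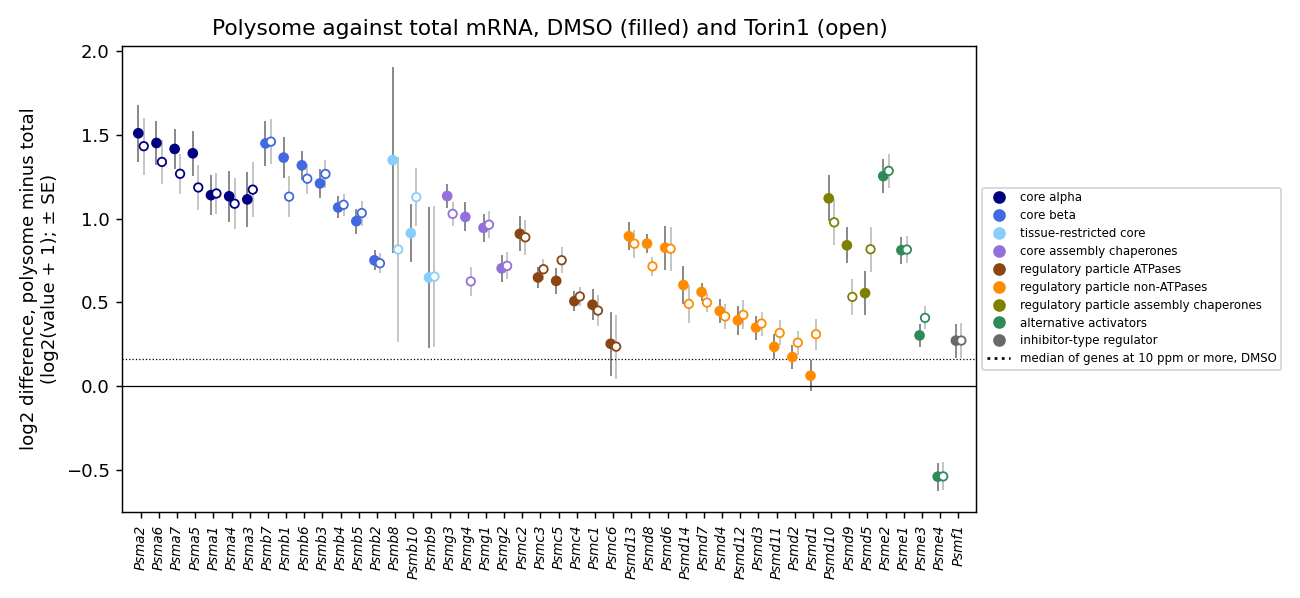
Log2 difference between polysome and total mRNA (± SE, 3 libraries per group) for each of the 46 genes, in DMSO (filled) and Torin1 (open), coloured by role; the dotted line is the median of genes at 10 ppm or more in DMSO. The 14 core genes lie between 0.73 and 1.51 and the 17 regulatory particle genes between 0.06 and 0.91, and Psme4 is below 0 in both treatments.

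Under Torin1 the core particle again exceeded the regulatory particle. All 14 core genes were higher in polysomes (median 1.18, 2.27-fold) and 16 of 17 regulatory particle genes (median 0.49, 1.40-fold), among 41 higher and 1 lower of the 46, against 20.7% and 19.1% of all genes, or 41.2% and 24.9% of those at 10 ppm or more. Psme4 was again the one lower gene, at 27.5, 29.1 and 26.8 ppm in total and 16.8, 20.4 and 20.3 ppm in polysomes (-0.54 ± 0.08, limma adjusted p = 0.000243). Psmb7, Psma2 and Psma6 were again the 3 largest, at 1.46 ± 0.13, 1.43 ± 0.17 and 1.34 ± 0.13. Psmd1 passed here (0.31 ± 0.09, limma adjusted p = 0.0192), though not without total Torin1 replicate 2 or 3 (limma adjusted p = 0.0552 and 0.0595).

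The gap between the particles was seen in each polysome library. The median core level was 1.39 to 1.49 times the median regulatory particle level in the 6 total libraries, and 2.05 to 2.85 times in the 6 polysome libraries, with no overlap. The core median exceeded the regulatory particle median by 0.76 in DMSO and 0.69 in Torin1 on the log2 scale of the polysome to total difference, and leaving out single libraries moved these gaps only between 0.72 and 0.80 and between 0.57 and 0.78. The gap is a description over genes and was given no test. It hardly depends on the scaling of columns, which shifts all genes nearly alike, whereas the size of each class's own difference does. With columns scaled to their totals alone the DMSO medians were 0.85 for the core and 0.10 for the regulatory particle, where the median of all genes tested was -0.37. In that scaling Psmd3 (-0.062), Psmd11 (-0.18), Psmd12 (-0.019), Psmd1 (-0.35) and Psme3 (-0.11) lay below 0, each still above the shift of all genes. As a share of the column total, without any rescaling, the core went from 0.411% to 0.414% in total DMSO to 0.734% to 0.736% in polysome DMSO. The regulatory particle went from 0.307% to 0.310% to 0.325% to 0.367%. Of the 6 erythroid markers 2 were higher in polysome DMSO than in total DMSO and of the 10 macrophage markers 4, with none lower in either list (2 erythroid and 0 macrophage markers lower at an unadjusted p under 0.05, limma). Of the 10 progenitor markers 1 was higher and 4 lower in polysome DMSO, and of the 6 neuron markers 1 and 3. Of all genes tested 21.8% were higher and 19.3% lower, or 42.6% and 24.8% of those at 10 ppm or more. Under Torin1 2 erythroid markers were higher and 2 lower, and 3 macrophage markers were higher. There 1 progenitor marker was higher and 4 lower, and 1 neuron marker higher and 4 lower. The shares of all genes were then 20.7% and 19.1%, or 41.2% and 24.9% of those at 10 ppm or more. The globin gene Hbb-bs was at 337, 351 and 320 ppm in total DMSO and 1009, 794 and 1021 ppm in polysome DMSO. The erythroid markers summed to 1204 to 1284 ppm in total DMSO and 1538 to 1958 ppm in polysome DMSO, and the macrophage markers to 16.4 to 24.2 ppm and 32.0 to 41.9 ppm. Their part in the result was not tested.

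**Figure D3:**
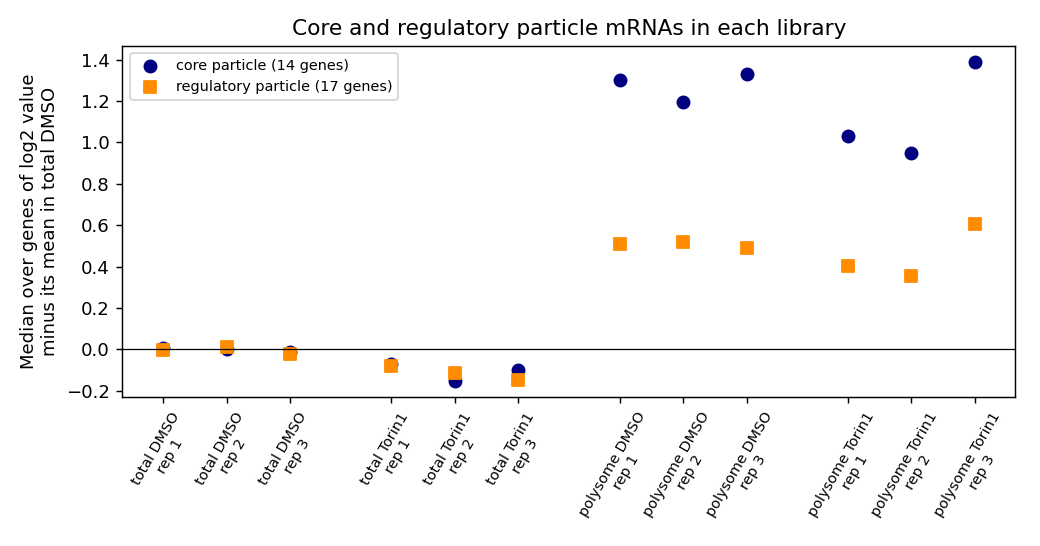
Median over the 14 core (circles) and 17 regulatory particle genes (squares) of the log2 value minus that gene's mean in total DMSO, in each of the 12 libraries. Total libraries lie between -0.15 and 0.01; in polysome libraries the core lies between 0.95 and 1.39 and the regulatory particle between 0.35 and 0.61, and polysome Torin1 replicate 3 is the highest library for both.

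In total mRNA, few proteasome genes passed the test after 2 h of Torin1, and the differences were small. Psme3, Psme4, Psmd12 and Psmd7 fell and Psmg3 rose, that is 4 lower and 1 higher of 46, against 4.16% lower and 3.33% higher among all genes tested, or 7.57% and 4.45% of those at 10 ppm or more. No core particle gene passed (lowest limma adjusted p 0.101, 1 gene at an unadjusted p under 0.05), and the 2 regulatory particle genes that did were non-ATPases. Of the 46, 37 had differences below 0, with a median of -0.11 (0.928-fold), where the median of all genes was 0.00 and that of genes at 10 ppm or more -0.05. The core median was -0.10 and the regulatory particle median -0.12. In 23 genes every Torin1 library lay below every DMSO library, and in 2 above, against 17.7% and 15.6% of all genes, or 29.9% and 18.1% of those at 10 ppm or more. A fit of the total libraries alone called 9 of the 46 lower and 1 higher, against 1504 and 1065 of 20240 genes. In that fit 22 were lower and 2 higher at an unadjusted p under 0.05 (limma). In the main fit of total mRNA, Torin1 was higher for 4 of 10 progenitor, 1 of 6 neuron and 1 of 6 endothelial markers. No erythroid or macrophage marker was called, and no marker of any list was lower. In polysome mRNA 5 progenitor, 1 neuron and 1 endothelial marker were higher and none lower, where 4.4% of all genes were higher. Whether the mix of cell types differed between treatments was not tested.

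Psme3 was at 105, 110 and 107 ppm in DMSO and 87.6, 82.2 and 85.9 ppm in Torin1, a log2 difference of -0.33 ± 0.07 (limma adjusted p = 0.0132). Psme4 was at 36.0, 34.7 and 33.7 ppm and 27.5, 29.1 and 26.8 ppm (-0.32 ± 0.08, limma adjusted p = 0.0365). The groups did not overlap for either activator. Psmd12, a lid subunit, went from 88.9, 88.7 and 92.0 ppm to 74.0, 73.3 and 70.2 ppm (-0.31 ± 0.09, limma adjusted p = 0.0499), just inside the threshold. Psmd7, the lid partner of the deubiquitinase Psmd14, went from 175, 172 and 159 ppm to 145, 140 and 138 ppm (-0.26 ± 0.05, limma adjusted p = 0.0162). Psmg3 was the one that rose, from 35.0, 34.1 and 36.1 ppm to 41.9, 41.7 and 45.8 ppm (0.30 ± 0.07, limma adjusted p = 0.0307). Its groups did not overlap, while its partner Psmg4 was at 171, 182 and 162 ppm and 167, 159 and 167 ppm (-0.06 ± 0.09, limma adjusted p = 0.743).

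The differences of these 5 genes kept their direction and much of their size when 1 library of the 12 was left out, while most calls were lost in some of those fits. The difference ranged from -0.35 to -0.30 for Psme3, -0.35 to -0.30 for Psme4, -0.33 to -0.29 for Psmd12, -0.30 to -0.23 for Psmd7 and 0.25 to 0.33 for Psmg3. Leaving out 1 library kept the call of Psme3 in 10 fits (lost without total DMSO replicate 2 or total Torin1 replicate 2, limma adjusted p = 0.0577 and 0.0673) and Psmd7 in 8 (lost without total DMSO replicate 1 or 2 or total Torin1 replicate 2 or 3, highest 0.0813). Psmg3 was kept in 6, lost without any of the 6 total libraries (highest limma adjusted p 0.124). Psme4 was kept in 4 and Psmd12 in 2, lost without any of the 6 total libraries (highest limma adjusted p 0.128 and 0.157), and the first also without polysome DMSO replicate 1 or 2, the second without any of the polysome DMSO libraries or polysome Torin1 replicate 2. No gene passed without total DMSO replicate 2 (2 higher and 6 lower at an unadjusted p under 0.05) or without total Torin1 replicate 2 (1 higher and 5 lower), where 1.92% and 1.93% of all genes were lower. With values as deposited none passed either (0 higher and 8 lower at an unadjusted p under 0.05), where 1.27% of all genes were lower. With columns scaled to their totals alone 2 were lower and none higher (1 at an unadjusted p under 0.05), against 2.53% and 1.63% of all genes. Without polysome Torin1 replicate 2, Psmb5 passed (limma adjusted p = 0.0302), and without polysome Torin1 replicate 3 Psmc2 did (0.0112). In total mRNA Psmb5 was at 279, 271 and 266 ppm in DMSO and 238, 232 and 228 ppm in Torin1 (-0.22 ± 0.07, limma adjusted p = 0.101).

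In polysome mRNA, Psmg4, Psme4 and Psmd7 were lower after Torin1 and no gene was higher (1 at an unadjusted p under 0.05), against 6.27% lower and 4.4% higher of all genes, or 12% and 6.29% of those at 10 ppm or more. Psmg4 was at 362, 305 and 374 ppm in DMSO and 273, 232 and 258 ppm in Torin1 (-0.45 ± 0.09, limma adjusted p = 0.00650). Psme4 was at 24.7, 24.2 and 22.8 ppm and 16.8, 20.4 and 20.3 ppm (-0.32 ± 0.08, limma adjusted p = 0.0285), and this call was lost without polysome DMSO replicate 1, 2 or 3 (limma adjusted p = 0.0987, 0.0746 and 0.0537). Psmd7 was at 248, 254 and 244 ppm and 204, 199 and 195 ppm (-0.32 ± 0.05, limma adjusted p = 0.00319). None of the 3 had overlapping groups, and Psmd7 and Psmg4 passed in all 12 fits that left out 1 library. Psme4 and Psmd7 were thus lower in both fractions, which come from the same cultures.

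For the core particle the polysome result turned on polysome Torin1 replicate 3. All 14 core genes had differences below 0 (median -0.17), and none passed (3 at an unadjusted p under 0.05, lowest limma adjusted p 0.113). The regulatory particle median was -0.06. The median of all genes tested was -0.01 and that of genes at 10 ppm or more -0.06, the same as the regulatory particle. Below 0 lay 5239 of the 8687 genes at 10 ppm or more. Psma4, an alpha subunit, was at 637, 531 and 594 ppm in DMSO and 420, 451 and 693 ppm in Torin1, so replicates 1 and 2 lay below all DMSO libraries and replicate 3 above. Psma7 was at 1105, 897 and 1078 ppm and 835, 778 and 1101 ppm, with replicates 1 and 2 again below the DMSO libraries and replicate 3 inside their range. Psma3 was at 582, 468 and 572 ppm and 398, 413 and 677 ppm. Polysome Torin1 replicates 1 and 2 were below the DMSO range for all 7 alpha genes, and replicate 3 above it for 6 of them, again without a count over all genes. Without replicate 3, 17 of the 46 genes were lower, against 9.15% of all genes and 18.3% of those at 10 ppm or more, and none was higher (1 at an unadjusted p under 0.05), against 5.13% of all genes. They were all 7 alpha genes, Psmb1, the ATPase Psmc2, 5 non-ATPases, Psme2, Psme4 and Psmg4. The core median was then -0.30 and the median of all genes tested -0.03. The median of genes at 10 ppm or more was not taken in this fit. Psmb1 then had a difference of -0.51 ± 0.07 (limma adjusted p = 0.00131) and Psma4 of -0.43 ± 0.08 (limma adjusted p = 0.00620). Without polysome Torin1 replicate 1, Psme3 passed as well (limma adjusted p = 0.0142), and without total Torin1 replicate 1 Psmd9 did (0.0191).

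The scaling of columns decided the direction in polysomes. With columns scaled to their totals alone, the median over all genes moved to 0.23, and 5 of the 46 genes were higher (Psmd1, Psmd2, Psmd4, Psmc1 and Psmg3) and none lower (1 at an unadjusted p under 0.05), against 14.4% and 1.63% of all genes. The core median was 0.092 and the regulatory particle median 0.20. In that scaling Psmg4 was at -0.18 (limma adjusted p = 0.145), Psme4 at -0.059 (0.752) and Psmd7 at -0.055 (0.728), all 3 still below the shift of all genes. The polysome differences are therefore relative to the other mRNAs in polysomes. Whether polysomes as a whole held less mRNA after Torin1 was not analysed here.

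**Figure D4:**
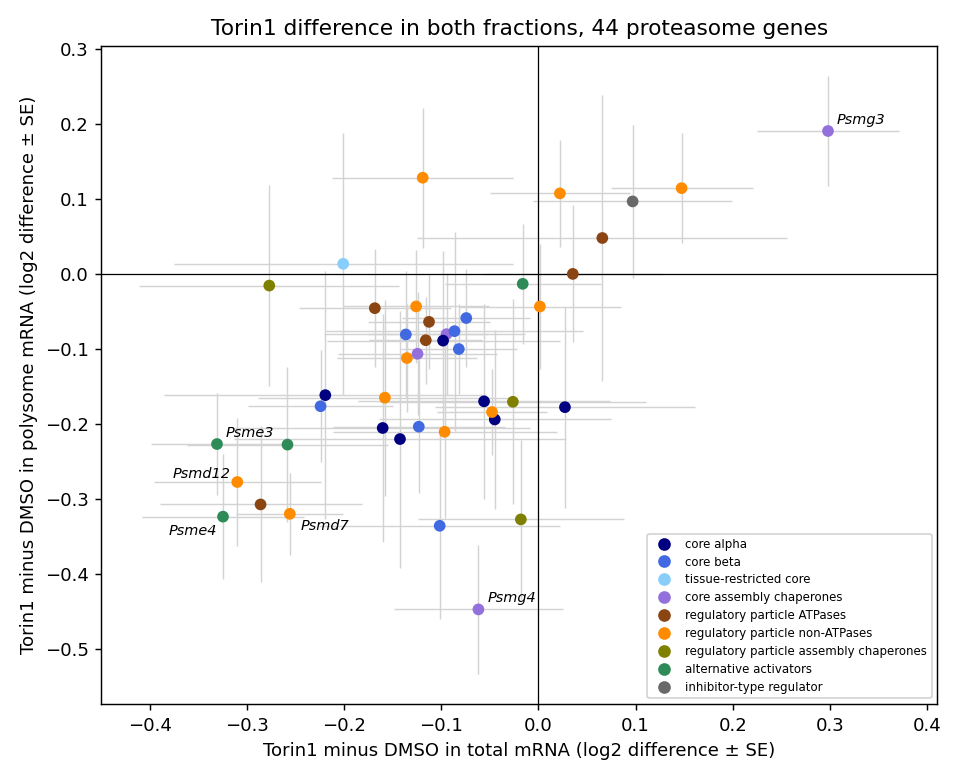
Log2 difference between Torin1 and DMSO in total mRNA (horizontal, ± SE) and in polysome mRNA (vertical, ± SE) for 44 of the 46 genes, coloured by role, with the genes past the threshold in either fraction named; Psmb8 and Psmb9, at under 2 ppm, are left out. Most points lie below 0 on both axes, with Psmg3 above 0 on both and Psmg4 at -0.45 in polysomes and -0.06 in total mRNA.

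Whether the Torin1 difference itself differed between the fractions was tested directly. For 0 of the 46 genes did the polysome difference depart from the total difference (1 at an unadjusted p under 0.05), against 0.692% lower and 0.0148% higher of all genes. The one was Psmg4, with -0.39 ± 0.12 (limma adjusted p = 0.472). The class medians of this interaction were -0.03 for the core and -0.01 for the regulatory particle, where the median of all genes was 0.00. The standard errors of the core genes ran from 0.085 to 0.24, so the missing calls do not show that the fractions responded alike.

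Of 19 genes that act with the proteasome, 2 were lower in total mRNA and the same 2 in polysomes. Lower were 4.16% and 6.27% of all genes, or 7.57% and 12% of those at 10 ppm or more. None of the 19 was higher in either fraction (1 in total mRNA and 0 in polysomes at an unadjusted p under 0.05, limma). Adrm1 was at 127, 124 and 128 ppm in total DMSO and 107, 96.4 and 92.8 ppm in total Torin1 (-0.36 ± 0.07, limma adjusted p = 0.0102), and in polysomes the difference was -0.34 ± 0.07 (limma adjusted p = 0.00916). Ube3c, a ubiquitin ligase that works on the proteasome, was at 38.5, 38.3 and 38.4 ppm and 31.8, 30.1 and 29.9 ppm (-0.33 ± 0.07, limma adjusted p = 0.0168), and at -0.37 ± 0.07 in polysomes (limma adjusted p = 0.00625). Pomp and Sem1 did not pass in either fraction, with -0.07 and -0.16 in total mRNA, and both were highest in polysome Torin1 replicate 3 among the libraries of that group (Pomp 978, 891 and 1371 ppm).

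Of 11 genes around NRF1, 1 was lower in total mRNA, and 2 were lower and 1 higher in polysomes. Among all genes 4.16% were lower in total mRNA, and 6.27% lower and 4.4% higher in polysomes. Among those at 10 ppm or more the shares were 7.57%, 12% and 6.29%. Nfe2l1 itself was at 60.4, 62.8 and 62.9 ppm in total DMSO and 50.2, 51.7 and 50.5 ppm in total Torin1, without overlap, and missed the threshold (-0.29 ± 0.08, limma adjusted p = 0.0547). In polysomes it was at 54.8, 57.9 and 61.1 ppm and 52.0, 47.6 and 40.8 ppm (-0.31 ± 0.08, limma adjusted p = 0.0304). Mafk, a small Maf protein that pairs with NRF1, was lower in both fractions (-0.35 ± 0.09 in total, limma adjusted p = 0.0451; -0.46 ± 0.09 in polysomes, 0.00902), and Mafg, another, was higher in polysomes (0.32 ± 0.08, limma adjusted p = 0.0317). Of 13 genes of class I antigen presentation and interferon response, which share regulation with Psmb8, Psmb9, Psmb10, Psme1 and Psme2 in immune settings, none passed in either Torin1 comparison (limma, 1 higher at an unadjusted p under 0.05 in total mRNA and 2 in polysomes). The polysome differences of all these genes are, like those above, relative to the other mRNAs in polysomes.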

How the data were processed

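The table holds 53351 genes and 12 sample columns. Its values were deposited by the authors as a signal without a stated unit, and they are no counts of reads: in each column 100.0% of values above 0 and below 5 ppm lay within 0.1 step of a whole multiple of 0.01 ppm, and lowest values fell with gene span, so depth is unknown. STAR 2.7.9a, HTSeq 0.6.0 and mm10 are named, with no role, per the submitters' processing notes. Columns were divided by their total and by a trimmed mean of log ratios (shares 0.3 and 0.05 trimmed). The 20240 genes that reached a value of 1 in no fewer than 3 libraries were fitted on log2(value + 1) with limma 3.58.1 in R 4.3.3 (4 group means, 12 libraries, variance trend), with Benjamini-Hochberg adjustment within each comparison and a threshold of 0.05. SDs of levels are not printed since every library is. The script was tested on simulated data. The genes, role classes and lists were chosen with earlier results of these data known; any member could be named, with full values for active-site pairs and the largest called differences. The labels call replicates biological without saying what separates them. The main fit did not pair libraries by replicate number, although total and polysome samples came from the same cultures. Whether equal numbers mark the same culture was not settled. Sequences are from RefSeq (GRCm38.p6). Other scalings, filters, pseudocounts, replicate blocks and leaving out each library were tried. Of the partner list, 22 names including older symbols gave 19 genes.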

Additional observations from a re-analysis of the deposited data

How the results depend on the processing

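Leaving out each library in turn, the total comparison had 0 to 1 higher and 0 to 5 lower genes, and the polysome comparison 0 higher and 2 to 17 lower. Over all 20240 genes the total comparison had 326 to 903 higher and 371 to 1254 lower. The polysome comparison had 523 to 1090 higher and 756 to 1851 lower, so the counts of all genes moved as well. The core medians were -0.12 to -0.08 in total, -0.30 to -0.07 in polysomes, -0.18 to 0.05 in the interaction, 1.23 to 1.29 for polysome against total in DMSO and 1.03 to 1.28 in Torin1. Those of the regulatory particle were -0.13 to -0.10, -0.12 to -0.01, -0.049 to 0.060, 0.49 to 0.53 and 0.46 to 0.50. The core minus regulatory medians were -0.01 to 0.03, -0.20 to -0.01, -0.13 to -0.01, 0.72 to 0.80 and 0.57 to 0.78.

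Scaling to the column total alone gave 0 higher and 2 lower in total, 5 higher and 0 lower in polysomes (core 0.092, regulatory particle 0.20), interaction medians of 0.27 and 0.29 (all genes 0.29), DMSO polysome against total medians of 0.85 and 0.10 with 2 lower, and a Torin1 regulatory particle median of 0.38. There Psmd3 (-0.062), Psmd11 (-0.18), Psmd12 (-0.019), Psmd1 (-0.35) and Psme3 (-0.11) reversed in DMSO. Values as deposited gave 0 higher and 0 lower in total (regulatory particle -0.24), 0 lower in polysomes, interaction medians of 0.15 and 0.17, polysome against total medians of 0.95 and 0.19 in DMSO and 0.35 for the regulatory particle in Torin1, with Psmd11 (-0.079) and Psme3 (-0.010) reversed. Upper-quartile scaling gave 1 lower in total (regulatory particle median -0.052), and regulatory particle medians of 0.43 and 0.40 for polysome against total. Of all 20240 genes, scaling to the column total alone called 329 higher and 512 lower in total, and 2911 higher and 329 lower in polysomes. For polysome against total in DMSO it called 6708 lower. Values as deposited called 103 higher and 257 lower in total and 273 lower in polysomes, and upper-quartile scaling 533 lower in total. Each scaling moves all genes of a library nearly alike. Why the counts of calls changed with it was not tested.

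Fitting only the groups compared gave 9 lower in total and 1 lower in polysomes, against 1504 and 296 of 20240 genes. At an unadjusted p under 0.05 (limma) 22 and 8 of the 46 were lower. Variances without the trend gave 0 higher and 1 lower in total, against 597 and 599 of all genes. A stricter filter gave 5 lower in polysomes, against 1406 of 15801 genes. The cause of these changes was not tested. A replicate block gave 2 lower in total, against 719 of 20240 genes, and left the other counts of calls within 1.5 times. Correlations of deviations between libraries of the same number ran from -0.28 to 0.25. Not every library correlated best with its own number, which does not exclude pairing. A block for each culture, taken from the numbers, gave 0 higher and 92 lower of 20240 genes in the interaction. The other 513 summary values, counting each setting and left-out library, moved by less than the limits used (1.5 times for counts, 1 SD between libraries for medians).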
